A study of Mus musculus with 18 samples.

Results

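The 8 genes described here encode enzymes that remove phosphates from phosphoinositides or from their soluble head groups. They were taken by symbol from a table of 16474 genes, as Inpp5d, Inppl1, Inpp4a, Inpp4b, Inpp5a, Inpp5b, Synj1 and Mtmr3, with gene IDs 16331, 16332, 269180, 234515, 212111, 16330, 104015 and 74302 in that order. All 8 were found and all 8 passed the filter on low values. RNA was sequenced from macrophages of C57BL/6 mice aged 8 weeks, whose bone marrow had spent 6 days with M-CSF at 50 ng/ml. The mice were p110g-/-, a name that stands for loss of the catalytic subunit p110gamma of phosphoinositide 3-kinase (PI3K) gamma, or wild type (WT). In each genotype, 1 group received M-CSF (20 ng/ml) and nothing else during 24 h. A second group received the same M-CSF plus LPS (lipopolysaccharide, 100 ng/ml) and IFNg (interferon gamma), also during 24 h, and the remaining group the same M-CSF plus IL-4, at 20 ng/ml, during 48 h. All 6 groups therefore carried M-CSF throughout, and each held 3 libraries, numbered 1 to 3. The labels do not say how the allele was made, or whether libraries that share a group stem from different mice or dishes. The p-values therefore measure the spread between libraries, which may be technical.

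Phosphoinositides are membrane lipids whose inositol ring is marked by phosphates at different positions. PI3K gamma, which G protein-coupled receptors switch on in myeloid cells, makes PtdIns(3,4,5)P3, the lipid that recruits kinases such as Akt and Btk to the membrane. The SHIP enzymes (Inpp5d and Inppl1) take off the 5-phosphate and leave PtdIns(3,4)P2, and the 4-phosphatases (Inpp4a and Inpp4b) turn that lipid into PtdIns3P. Myotubularins such as Mtmr3 remove the 3-phosphate from PtdIns3P, whereas Inpp5b and synaptojanin 1 (Synj1) act mainly on PtdIns(4,5)P2, the lipid from which PI3K starts, and Inpp5a cleaves the soluble messenger Ins(1,4,5)P3 that releases calcium.

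Depth ran from 40.1 to 69.6 M reads a library, summed over the genes of the table, and values are read counts normalised by the authors to 1 factor per library. Libraries numbered 1 stood apart. For pairs of libraries within a group, the mean squared difference over its counting variance was 36.4 to 137 with number 1 and 14.9 to 43.8 between numbers 2 and 3. Pik3cg, the gene of p110gamma, had 1887.5, 2045.8 and 1965.8 normalised counts in p110g-/- M-CSF libraries, against 5307.5, 5330.3 and 4993.5 in WT, and 955.6, 1083.3 and 964.8 in p110g-/- IL-4 libraries, against 3068.2, 2952.9 and 3280.5 in WT. In IFNg/LPS it had 3691.4, 1410.5 and 2036.7 in the libraries labelled p110g-/-, against 3559.5, 2309 and 2604.2 in WT. The library labelled p110g-/- IFNg/LPS number 1 was thus above all 3 WT libraries for the targeted gene. Tests of the members in IFNg/LPS are given with and without it where a value or a call rests on it. Shares and ratios include it. The 9 listed macrophage symbols stood for 8 genes, all in the table. Their summed count ranged from 450218 to 1044320 over the 18 libraries.

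Promoter sequences are shown for 5 members, so that their values can be read beside the bases upstream of the gene. They are the 3 with a genotype difference that passed in IFNg/LPS (Inpp4b, Inpp4a and Inpp5d) and the members with the largest responses to IFNg/LPS (Inpp5b) and IL-4 (Inpp5a) shared by both genotypes. RefSeq windows (GRCm38.p6, while the authors' build was mm9) were found for 7 of the 8 members, with 12 windows in all. The 250 bases before the start are printed, 5′ to 3′ on the strand of the gene. Capitals mark matches, on either strand, to TTC and GAA with 3 bases between (GAS) or with 4 bases between (STAT6 type), GAAA and GAAA with 2 bases between (ISRE core, bound by interferon regulatory factors), TGANTCA (AP-1) or an NF-kB motif.
Inpp4b, chr8:81342312-81342561, plus strand: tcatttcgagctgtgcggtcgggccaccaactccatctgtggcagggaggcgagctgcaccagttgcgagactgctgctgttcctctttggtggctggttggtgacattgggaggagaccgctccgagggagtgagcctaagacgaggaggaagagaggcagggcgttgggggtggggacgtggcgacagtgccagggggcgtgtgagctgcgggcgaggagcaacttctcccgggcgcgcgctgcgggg
Inpp4a, chr1:37299588-37299837, plus strand: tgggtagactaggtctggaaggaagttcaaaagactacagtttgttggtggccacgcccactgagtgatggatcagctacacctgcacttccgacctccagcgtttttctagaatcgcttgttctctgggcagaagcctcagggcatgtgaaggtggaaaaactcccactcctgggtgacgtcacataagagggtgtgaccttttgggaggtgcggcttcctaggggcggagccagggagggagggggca
Inpp5d, chr1:87620062-87620311, plus strand: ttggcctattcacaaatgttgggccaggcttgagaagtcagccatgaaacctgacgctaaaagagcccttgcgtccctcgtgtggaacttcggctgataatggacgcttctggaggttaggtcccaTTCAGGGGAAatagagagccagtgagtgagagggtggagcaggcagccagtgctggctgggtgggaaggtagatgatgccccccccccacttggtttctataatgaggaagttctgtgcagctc
Inpp5b, chr4:124741600-124741849, plus strand: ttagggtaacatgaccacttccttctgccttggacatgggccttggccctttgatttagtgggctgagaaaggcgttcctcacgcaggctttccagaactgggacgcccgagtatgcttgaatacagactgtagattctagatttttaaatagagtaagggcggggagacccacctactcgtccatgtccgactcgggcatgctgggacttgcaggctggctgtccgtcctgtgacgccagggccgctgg
Inpp5a, chr7:139388859-139389108, plus strand: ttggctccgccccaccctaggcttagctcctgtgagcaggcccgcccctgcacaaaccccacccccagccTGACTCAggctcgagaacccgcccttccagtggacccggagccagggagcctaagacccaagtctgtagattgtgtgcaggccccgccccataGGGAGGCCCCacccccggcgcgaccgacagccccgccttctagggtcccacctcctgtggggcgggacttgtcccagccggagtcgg

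None of the 5 motifs matched in the windows of Inpp4b and Inpp5b, or in the window of Inpp4a that is printed. Inpp5d held 1 STAT6 type match, TTCAGGGGAA, whose first base lies 124 bases before the start. In Inpp5a the AP-1 match TGACTCA began 180 bases, and an NF-kB match 87 bases, before the start, and a window of a second Inpp5a start held TTCTGGGAA, a GAS match, 81 bases before it. Among 32851 windows of the same length over all genes, 7.02% held a GAS match, 5.85% a STAT6 type match, 2.98% an ISRE core, 6.75% an AP-1 match and 7.25% an NF-kB match. An NF-kB match also lay 247 bases before the start in the third Inpp4a window and 220 bases before it in the first Inppl1 window, neither of them printed. Of the 12 windows of the members, 5 held any of the motifs, against 26.5% of all windows. A match is a run of letters, and no match says only that these letters are absent from this window.

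The members differed widely in level. Averaged over the 18 libraries and divided by exon length, Inpp5d led with 1676 normalised counts per kb, ahead of Inpp5b with 1098, Inppl1 with 1046, Synj1 with 929 and Mtmr3 with 705 counts per kb. Inpp5a had 309 and Inpp4a 211 counts per kb. Inpp4b was far below all of them at 4.71 counts per kb, with 14 to 215 reads per library.

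The make-up of this RNA differed between stimuli. As a share of the summed count per kb of the 8 genes, Inpp5b made up 33.8% ± 2.94 in p110g-/- and 29.8% ± 4.28 in WT cells given IFNg/LPS, against 7.60% ± 0.243 and 6.64% ± 0.314 in the M-CSF cells of those genotypes (SD, n = 3 each). Inpp5a made up 13.3% ± 1.07 in p110g-/- and 13.7% ± 0.600 in WT cells given IL-4, against 2.81% ± 0.0883 and 2.63% ± 0.205 in M-CSF. In IFNg/LPS the share of Inpp5d was 25.2% ± 0.332 in p110g-/- and 29.3% ± 2.62 in WT. Inpp5b was above Inpp5d in all 3 p110g-/- libraries (37.2%, 32.1% and 32.1% for Inpp5b), but in WT only in library 1 (34.8% against 26.3%), and below it in libraries 2 (27.5% against 30.8%) and 3 (27.2% against 30.9%). Inpp5d was the largest mean share in M-CSF and in IL-4 for both genotypes, with 31.0% ± 1.06 in p110g-/- and 33.8% ± 2.63 in WT cells in M-CSF. Inpp4b stayed below 1% of the sum in every group. Counts per kb summed to 7516 ± 751 in p110g-/- and 8407 ± 850 in WT cells given IFNg/LPS. In M-CSF the sums were 5195 ± 120 and 5548 ± 133 in those genotypes. The lower share of Inpp5d in IFNg/LPS thus came with a higher mean count. That count was 14412 against 12238 in p110g-/- and 18615 against 14291 in WT.

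**Figure D1:**
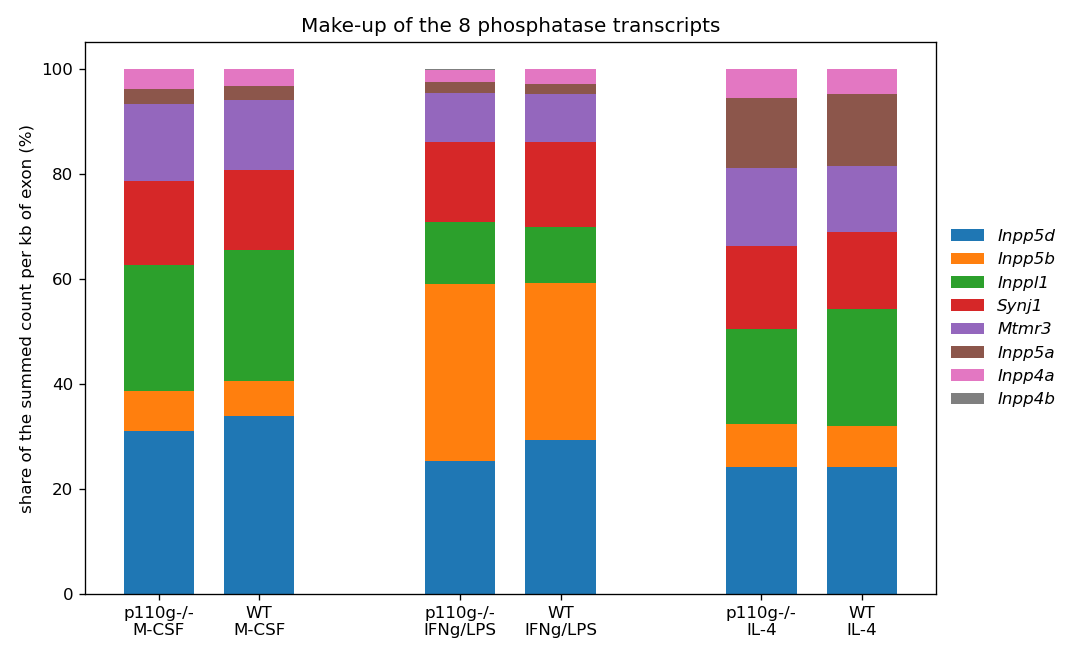
Share of the summed count per kb of exon (%, vertical axis) taken by each of the 8 genes in the 6 groups, as means of 3 libraries, with p110g-/- left of WT under each stimulus. Inpp5b fills 33.8% and 29.8% of the bars of p110g-/- and WT IFNg/LPS, and Inpp5a 13.3% and 13.7% of those of p110g-/- and WT IL-4.

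Genotypes were compared under each stimulus to ask whether the RNA of the 8 enzymes differed with loss of p110gamma. In IFNg/LPS the 4-phosphatase Inpp4b was 9.05-fold higher in p110g-/- than in WT macrophages, while the other 4-phosphatase, Inpp4a, and SHIP1 (Inpp5d) were lower, by 1.36-fold and 1.29-fold. These 3 were the members that passed the test there, 1 higher and 2 lower of 8, against 14.7% of the 15627 tested genes (6.94% higher and 7.79% lower). No member passed in M-CSF, where 2.34% of tested genes did, or in IL-4, where 3.33% did. At an unadjusted p under 0.05 there were 2 members in M-CSF, beside 13.2% of tested genes, and 3 in IL-4, beside 15.0%. In M-CSF, edgeR and DESeq2 also called no member, beside 383 and 673 of all tested genes. In IL-4, edgeR called no member beside 551 genes, and DESeq2 called 1 higher (Mtmr3) and 1 lower (Inppl1) beside 921 genes. The median size of the log2 difference, was 0.19 over the 8 members in IFNg/LPS and 0.20 over all tested genes.

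Groups of 3 libraries did not overlap for 4 members in IFNg/LPS (1 higher and 3 lower), 2 in M-CSF (both lower) and 3 in IL-4 (2 higher and 1 lower). Over all tested genes the groups did not overlap for 28.2%, 21.6% and 22.6% in IFNg/LPS, M-CSF and IL-4. The median log2 fold change of the members was -0.10 in IFNg/LPS, -0.0047 in M-CSF and -0.018 in IL-4, beside 0.00056, -0.00087 and -0.0034 over all tested genes.

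**Figure D2:**
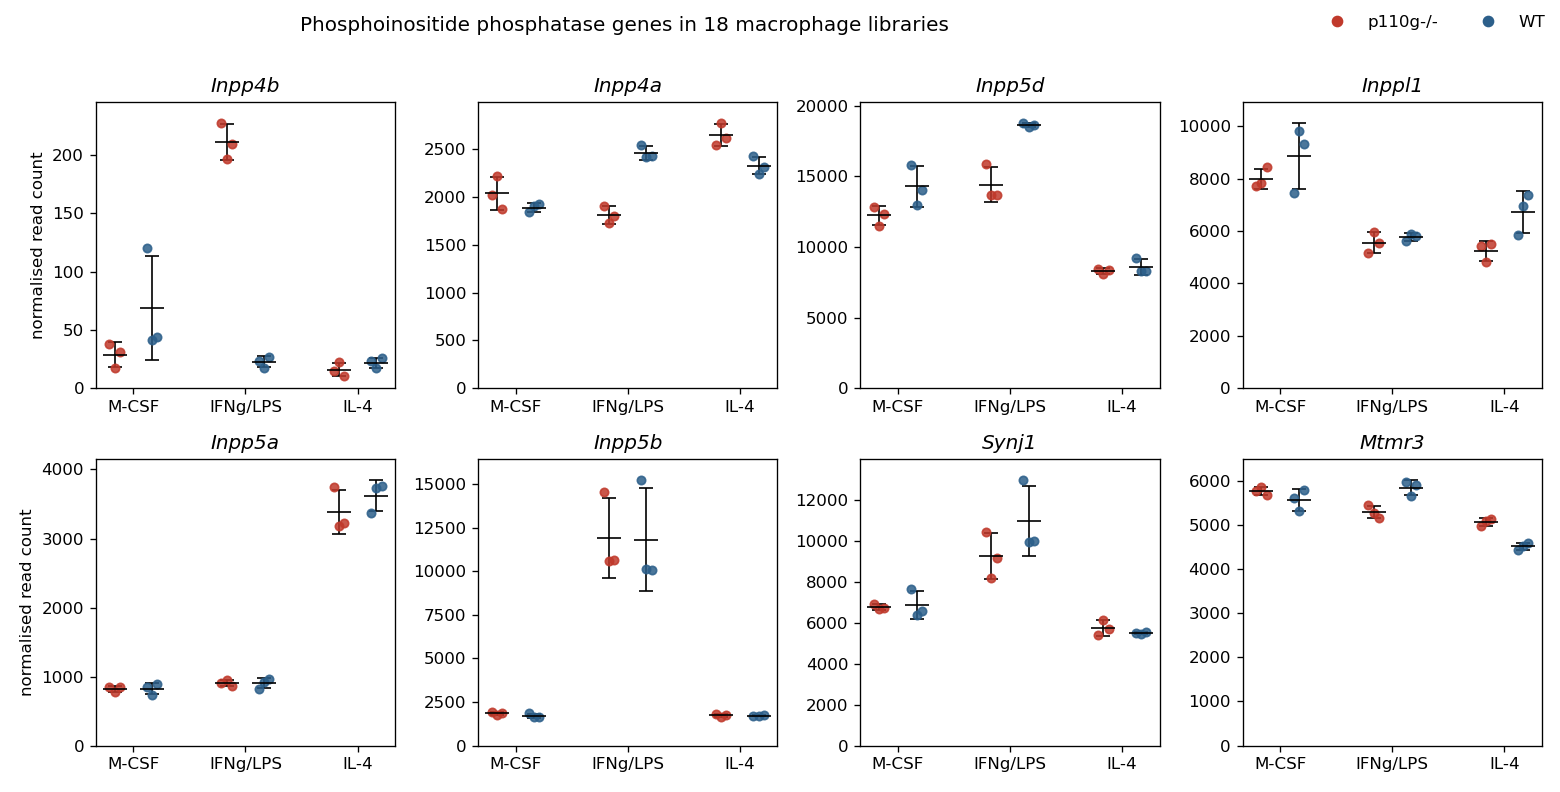
Normalised read count (vertical axis, from 0, a scale of its own for each gene) of the 8 genes in 18 libraries, with points for libraries 1, 2 and 3 from left to right and a black mark for the mean ± SD of the 3. The p110g-/- IFNg/LPS libraries of Inpp4b sit at 196.5 to 226.8, above all other libraries of that gene. Inpp5b is high in IFNg/LPS and Inpp5a is high in IL-4, for both genotypes.

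Inpp4b, which removes the 4-phosphate of PtdIns(3,4)P2 and is known as a tumour suppressor in breast and prostate epithelium, was the member with the largest genotype difference. In IFNg/LPS its normalised counts were 226.8, 196.5 and 209.5 in p110g-/- libraries 1, 2 and 3, against 23.6, 17.7 and 26.8 in WT. Every p110g-/- library was far above every WT library. They came from 195, 207 and 215 reads in p110g-/- and from 16, 19 and 17 reads in WT, and the exact 95% Poisson intervals of single libraries, which cover counting error only, ran from 171 to 261 in p110g-/- and from 10.7 to 42.9 in WT. The log2 fold change was 3.18 (SE 0.38, adjusted p = 5.7e-05 by limma). It was 3.12 (adjusted p = 0.00033) without the p110g-/- library numbered 1, and 3.16 (adjusted p = 8.1e-05) with libraries 2 and 3 alone. Bulk RNA cannot tell fewer or more cells of a type from less or more RNA per cell.

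Lists of markers for other cell types were summed in the same libraries. The 6 listed dendritic cell markers, all in the table, summed to 7906 to 20746 in p110g-/- IFNg/LPS libraries, against 1559 to 4932 in WT. Most of that sum was Ccr7, a chemokine receptor, at 7190 to 19983 in p110g-/- and 979 to 3926 in WT, while Cd209a was 0 in all 6 libraries. Flt3 (14.2 to 32.6 in p110g-/-, 6.3 to 22.1 in WT), Zbtb46 (26.6 to 55.8 and 11.1 to 29.5), Siglech (5.8 to 9.5 and 1.6 to 13.1) and Xcr1 (646 to 668 and 561 to 948) overlapped between p110g-/- and WT. The 8 neutrophil markers summed to 1041 to 1915 in p110g-/- and 2131 to 3279 in WT, with Elane at 0 in all 6, and 4 of 5 mast cell markers to 62.6 to 188.5 and 42 to 60.6. Fibroblast markers (5 of 5) summed to 264.8 to 468.8 in p110g-/- and 232.2 to 285 in WT, B cell markers (4 of 5) to 44.5 to 123.3 and 55.3 to 94.4, and T and NK cell markers (3 of 6) to 63.3 to 85 and 60 to 76.8. The part of these cells in the result was not tested.

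Outside IFNg/LPS, Inpp4b was low in both genotypes. In M-CSF the counts were 37.9, 17.5 and 31.4 in p110g-/- libraries, against 119.8, 41.1 and 44.4 in WT. All 3 p110g-/- libraries were below all 3 WT libraries, of which number 1 stood far above the other two. The log2 fold change was -1.10 (SE 0.38, adjusted p = 0.18), and -0.61 (adjusted p = 0.55) without the WT library numbered 1. In IL-4 the counts were 15.1, 22.3 and 10.8 in p110g-/-, against 23.2, 17.4 and 25.8 in WT, and these groups overlapped (log2 fold change -0.48, 95% interval -1.28 to 0.32). In the order of group means, p110g-/- IFNg/LPS was highest and WT M-CSF next, and neighbours overlapped from p110g-/- M-CSF downwards through WT IFNg/LPS and WT IL-4 to p110g-/- IL-4.

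Inpp4a, the 4-phosphatase known for its part in endosomes and in protecting neurons, was lower in p110g-/- cells given IFNg/LPS. Its counts were 1901.5, 1720.8 and 1800.8 in p110g-/- libraries, against 2539.3, 2410.8 and 2422.6 in WT, with no overlap. The log2 fold change was -0.44 (SE 0.064, adjusted p = 0.00033), and -0.48 (adjusted p = 0.00044) without the p110g-/- library numbered 1. In M-CSF the counts of 2013.9, 2219.6 and 1870.8 in p110g-/- overlapped the 1838.3, 1897.6 and 1923.6 of WT. In IL-4 all 3 p110g-/- libraries, at 2544, 2764.6 and 2612, were above the 2421.9, 2238.7 and 2312 of WT, and the log2 fold change of 0.18 (SE 0.064) did not pass (adjusted p = 0.15).

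Per kb of exon, Inpp4a thus exceeded Inpp4b by 10.8-fold ± 0.235 in p110g-/- cells given IFNg/LPS, against 140-fold ± 29.1 in WT (SD, n = 3 each). This ratio was 100-fold ± 51.3 in p110g-/- and 44.0-fold ± 21.4 in WT cells in M-CSF, where the few Inpp4b reads made it vary between libraries.

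Inpp5d, or SHIP1, is the 5-phosphatase of blood cells that inhibitory receptors recruit to limit PtdIns(3,4,5)P3. In IFNg/LPS its counts were 15861.3, 13715.5 and 13660.3 in p110g-/- libraries, against 18752.4, 18468.5 and 18624.3 in WT. All p110g-/- libraries were below all WT libraries. The log2 fold change was -0.37 (SE 0.079, adjusted p = 0.0054), and it did not pass when only these 6 libraries were fitted (adjusted p = 0.062). Without the p110g-/- library numbered 1 it was -0.44 (adjusted p = 0.0021). In M-CSF, the counts of 12844.5, 11508.7 and 12360.4 in p110g-/- were likewise below the 15820.2, 12995.2 and 14057.1 of WT, but the log2 fold change of -0.22 (95% interval -0.39 to -0.052) did not pass (adjusted p = 0.21). In IL-4 the ranges overlapped, with 8441.3, 8069.9 and 8387 in p110g-/- and 9256.7, 8287.9 and 8286.3 in WT.

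Averaged over the 3 stimuli, Inpp5d was the member lower in p110g-/- cells (log2 fold change -0.21, SE 0.046, adjusted p = 0.0060). It was the 1 call among 8 members in that average, where 11.8% of tested genes were called and 6.52% were lower. Inpp4b, with 0.53 (adjusted p = 0.13), did not pass, but did without the WT M-CSF library numbered 1 (0.70, adjusted p = 0.020) and with libraries 2 and 3 alone (0.63, adjusted p = 0.049). Inppl1, with -0.18 (adjusted p = 0.060), passed without the WT M-CSF library numbered 1 (-0.22, adjusted p = 0.012) or the WT IL-4 library numbered 1 (-0.22, adjusted p = 0.022), with libraries 2 and 3 alone (-0.24, adjusted p = 0.0017), in the blocked fit (adjusted p = 0.024) and with DESeq2 (adjusted p = 0.027).

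Inppl1, or SHIP2, is the more widely expressed relative of SHIP1, known from insulin signalling. Its largest genotype difference was in IL-4, with 5424.5, 4811.1 and 5518 in p110g-/- libraries, against 5831.9, 6949.2 and 7365.7 in WT. The groups did not overlap. The log2 fold change of -0.35 (95% interval -0.57 to -0.13) did not pass (adjusted p = 0.087), and was -0.45 (adjusted p = 0.027) without the WT library numbered 1 and -0.47 (adjusted p = 0.0011) with libraries 2 and 3 alone. In M-CSF the counts of 7703.9, 7822.6 and 8435.3 in p110g-/- lay within the WT range of 7453 to 9819.3, and in IFNg/LPS 5148.7, 5976 and 5550.6 in p110g-/- overlapped 5610.1, 5897.2 and 5799.1 in WT (log2 fold change -0.056, and -0.0020 without the p110g-/- library numbered 1). GENCODE M21 places exons of the antisense gene Gm10602 over 18.8% of the exon bases of Inppl1, and whether counting used strand is not given in the sources used here, so reads of the pair cannot be told apart.

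Inpp5d exceeded Inppl1 per kb in all groups on average. The ratio was 2.20 ± 0.349 in p110g-/- and 2.72 ± 0.0896 in WT cells given IFNg/LPS, 1.33 ± 0.0694 and 1.10 ± 0.210 in p110g-/- and WT cells given IL-4, and 1.29 ± 0.0967 and 1.39 ± 0.352 in p110g-/- and WT cells in M-CSF (SD, n = 3 each). In 1 library, WT IL-4 number 3, it was below 1, at 0.947.

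The enzymes that act on PtdIns(4,5)P2 or on Ins(1,4,5)P3 showed no genotype difference that passed. Inpp5b, a 5-phosphatase related to OCRL, the enzyme lost in Lowe syndrome, had 14529.6, 10558.5 and 10631.6 in p110g-/- IFNg/LPS libraries, against 15201.9, 10109.1 and 10069.4 in WT. Number 1 was highest in both genotypes, and the log2 fold change was 0.025 (95% interval -0.27 to 0.32), or -0.13 (adjusted p = 0.57) without the p110g-/- library numbered 1. Inpp5a, which ends the Ins(1,4,5)P3 signal, differed by -0.10 in IL-4 (95% interval -0.29 to 0.089), by 0.0069 in IFNg/LPS and by 0.0042 in M-CSF on the log2 scale.

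Synj1, a 5-phosphatase that also carries a Sac1 domain and uncoats clathrin vesicles at synapses, had 10443.9, 8185.6 and 9166 in p110g-/- IFNg/LPS libraries, against 12940.1, 9941.1 and 10007.8 in WT. Each p110g-/- library was below the WT library of its number, although the groups overlapped. The log2 fold change of -0.24 (SE 0.10) did not pass (adjusted p = 0.14), and did with libraries 2 and 3 alone (-0.20, adjusted p = 0.033). Without the p110g-/- library numbered 1 it was -0.33 (adjusted p = 0.052). In IL-4 and M-CSF the differences were 0.061 (95% interval -0.16 to 0.28) and -0.014 (95% interval -0.24 to 0.21).

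Mtmr3, a 3-phosphatase of PtdIns3P and PtdIns(3,5)P2 known to restrain autophagy, had a coefficient of variation of at most 4.47% in any group. In IFNg/LPS it had 5447.6, 5285 and 5170.6 in p110g-/- libraries, against 5979.2, 5656.3 and 5903.3 in WT. In IL-4 it had 4971.8, 5101.8 and 5137.5 in p110g-/-, against 4437.1, 4520.5 and 4598.1 in WT. The groups did not overlap under either stimulus, and p110g-/- was on the lower side in IFNg/LPS and on the higher side in IL-4. The log2 fold changes of -0.14 (SE 0.048) and 0.17 (SE 0.048) did not pass with limma (adjusted p = 0.060 and 0.077) and passed with DESeq2 (adjusted p = 0.0067 and 0.0025). Without the p110g-/- IFNg/LPS library numbered 1 the IFNg/LPS value was -0.16 (adjusted p = 0.053). In M-CSF, 5785.4, 5871.8 and 5681.8 in p110g-/- overlapped 5614, 5314.6 and 5809.7 in WT.

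**Figure D3:**
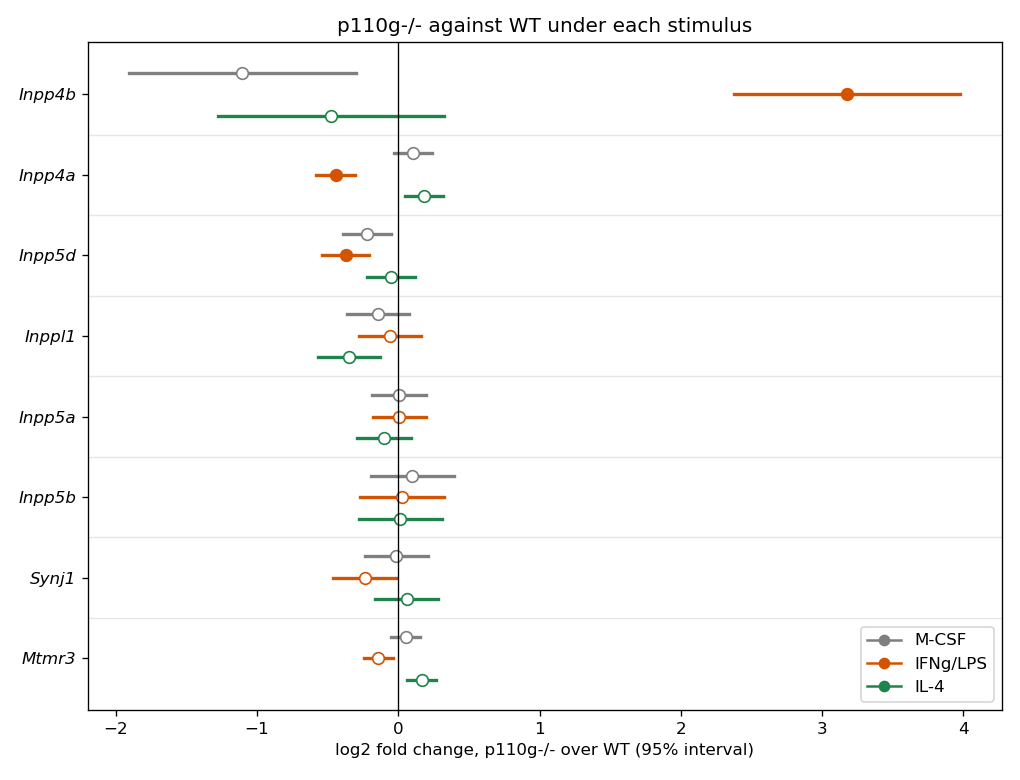
Log2 fold change of p110g-/- over WT (horizontal axis, point and 95% interval from limma) for the 8 genes (vertical axis) in M-CSF, IFNg/LPS and IL-4. Filled points passed the test, and only Inpp4b (3.18), Inpp4a (-0.44) and Inpp5d (-0.37) in IFNg/LPS are filled.

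Both stimuli moved several members in each genotype. IFNg/LPS against M-CSF changed 7 of 8 members in p110g-/- cells, 4 higher and 3 lower, where 73.0% of tested genes changed (36.2% higher and 36.8% lower). In WT cells it changed 6, with 4 higher and 2 lower, where 73.8% changed (36.3% higher and 37.5% lower). IL-4 against M-CSF changed 5 in p110g-/- cells, 2 higher and 3 lower, beside 43.9% of tested genes (22.7% higher and 21.2% lower). In WT it changed 7, with 2 higher and 5 lower, beside 43.9% (22.9% higher and 21.1% lower). The responses of a genotype to the 2 stimuli share its M-CSF libraries. IL-4 acted during 48 h and M-CSF alone during 24 h, and the part of time in that comparison cannot be told apart from that of the stimulus.

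The summed macrophage markers also differed between stimuli. They were 589905 to 690110 in p110g-/- and 643541 to 706599 in WT IFNg/LPS libraries, 450218 to 533985 and 501406 to 553576 in p110g-/- and WT IL-4 libraries, and 931806 to 965882 and 883966 to 1044320 in p110g-/- and WT M-CSF libraries. Their part in the responses of the members was not tested.

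Inpp5b had the largest response to IFNg/LPS shared by both genotypes. Beside the IFNg/LPS counts of 10558.5 to 14529.6 in p110g-/- and 10069.4 to 15201.9 in WT given above, its M-CSF libraries held 1918.5, 1727.8 and 1870.8 in p110g-/- and 1840.6, 1653 and 1654 in WT. No library overlapped, and the log2 fold changes were 2.68 in p110g-/- (SE 0.14, adjusted p = 1.1e-10) and 2.75 in WT (SE 0.14, adjusted p = 8.5e-11), or 6.40-fold and 6.75-fold. Without the p110g-/- IFNg/LPS library numbered 1 the p110g-/- response was 2.53 (adjusted p = 4.4e-10). With IL-4 it had 1805.1, 1627.9 and 1740.5 in p110g-/- and 1712.4, 1667.2 and 1734.6 in WT, and the log2 differences from M-CSF were -0.093 (95% interval -0.39 to 0.20) and -0.0077 (95% interval -0.30 to 0.29).

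Inpp5a had the largest response to IL-4 in both genotypes. Its IL-4 libraries held 3744.3, 3174.5 and 3231.8 in p110g-/- and 3368.2, 3735.9 and 3759.6 in WT, and its M-CSF libraries 854.1, 773.7 and 847.5 in p110g-/- and 854.2, 733.9 and 885.5 in WT. Every IL-4 library was above every M-CSF library of its genotype, with log2 fold changes of 2.03 in p110g-/- (SE 0.089, adjusted p = 2.4e-10) and 2.14 in WT (SE 0.089, adjusted p = 2.1e-10), or 4.09-fold and 4.40-fold. By p-value this was the gene in place 20 of 15627 in p110g-/- and in place 10 in WT. With IFNg/LPS the log2 difference was 0.13 in each genotype and did not pass (adjusted p = 0.19 in both), although WT passed with libraries 2 and 3 alone (0.22, adjusted p = 0.037). GENCODE M21 exons of Nkx6-2, on the opposite strand, cover 4.35% of the Inpp5a exons.

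The ratio of Inpp5b to Inpp5a per kb put both responses on 1 scale. It was 16.0 ± 2.98 in p110g-/- and 16.1 ± 5.45 in WT cells given IFNg/LPS, 0.620 ± 0.0343 and 0.573 ± 0.0393 in p110g-/- and WT cells given IL-4, and 2.70 ± 0.0239 and 2.54 ± 0.242 in p110g-/- and WT cells in M-CSF (SD, n = 3 each).

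The SHIP genes moved apart in IFNg/LPS and together in IL-4. Inpp5d rose with IFNg/LPS by 0.23 on the log2 scale in p110g-/- cells (adjusted p = 0.015) and by 0.39 in WT (adjusted p = 0.00039), while Inppl1 fell by 0.52 in p110g-/- (adjusted p = 0.00028) and by 0.61 in WT (adjusted p = 6.6e-05). With IL-4, Inpp5d fell by 0.56 in p110g-/- (adjusted p = 4.3e-05) and by 0.73 in WT (adjusted p = 3.8e-06), and Inppl1 by 0.61 in p110g-/- (adjusted p = 0.00023) and by 0.40 in WT (adjusted p = 0.0058). The rise of Inpp5d in p110g-/- cells did not pass without the IFNg/LPS library numbered 1 (0.16, adjusted p = 0.083), without the M-CSF library numbered 2 (0.19, adjusted p = 0.069), in a fit of these 6 libraries alone (adjusted p = 0.0502) or with upper quartile scaling (0.11, adjusted p = 0.25). That scaling lowered the median log2 fold change of all tested genes by 0.13 in p110g-/- and 0.14 in WT. The WT rise of Inpp5d held under all alternatives (0.24 to 0.46). For Inppl1 the p110g-/- response to IFNg/LPS was -0.47 (adjusted p = 0.0019) without the IFNg/LPS library numbered 1.

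Inpp4b and Inpp4a each responded to IFNg/LPS in opposite directions in the 2 genotypes. Inpp4b rose by 2.89 on the log2 scale in p110g-/- cells (SE 0.38, adjusted p = 4.2e-06; 2.84 without the IFNg/LPS library numbered 1, adjusted p = 3.5e-05) and fell by 1.39 in WT (SE 0.38, adjusted p = 0.0035). The fall in WT leaned on the M-CSF library numbered 1 and was -0.90 without it (adjusted p = 0.023). Inpp4a fell by 0.17 in p110g-/- cells (adjusted p = 0.027) and rose by 0.38 in WT (adjusted p = 6.0e-05). Without the p110g-/- IFNg/LPS library numbered 1 its p110g-/- response was -0.21 (adjusted p = 0.017). The fall in p110g-/- did not pass without the M-CSF library numbered 2 (-0.10, adjusted p = 0.16), without the IFNg/LPS library numbered 2 (-0.13, adjusted p = 0.10) or 3 (-0.17, adjusted p = 0.058), or in a fit of these 6 libraries alone (adjusted p = 0.11).

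With IL-4, Inpp4a rose by 0.38 in p110g-/- (adjusted p = 0.00021) and by 0.30 in WT (adjusted p = 0.0014). Inpp4b fell by 1.42 in WT (adjusted p = 0.0064), or by 0.94 without the M-CSF library numbered 1 (adjusted p = 0.036). In p110g-/- cells its log2 difference of -0.80 did not pass (adjusted p = 0.098) but did without the M-CSF library numbered 2 (-1.11, adjusted p = 0.037).

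Synj1 rose with IFNg/LPS by 0.45 in p110g-/- (adjusted p = 0.0012) and by 0.67 in WT (adjusted p = 2.7e-05). Synj1 rose by 0.36 in p110g-/- without the IFNg/LPS library numbered 1 (adjusted p = 0.0082). With IL-4 it had 5375, 6128 and 5706.4 in p110g-/- and 5492, 5452.8 and 5529.2 in WT, against 6900.4, 6653.2 and 6724.1 in p110g-/- and 7625.9, 6353.4 and 6554.4 in WT in M-CSF. It fell by 0.31 in WT (adjusted p = 0.024), a call lost without the WT M-CSF library numbered 1 (-0.23, adjusted p = 0.12) or the WT IL-4 library numbered 2 (-0.31, adjusted p = 0.062) or 3 (-0.32, adjusted p = 0.054). In p110g-/- the difference of -0.24 did not pass (adjusted p = 0.078), but it did with the replicate number as a block (adjusted p = 0.048) and in a fit of these 6 libraries alone (adjusted p = 0.017).

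Mtmr3 fell with IL-4 by 0.19 in p110g-/- (adjusted p = 0.0047) and by 0.30 in WT (adjusted p = 0.00013). With IFNg/LPS it fell by 0.12 in p110g-/- (adjusted p = 0.028), a call lost without any 1 of 4 libraries (M-CSF numbers 1 and 2, IFNg/LPS numbers 2 and 3, adjusted p = 0.058, 0.082, 0.055 and 0.090) and in a fit of these 6 libraries alone (adjusted p = 0.11). In WT the difference was 0.068 (95% interval -0.034 to 0.17).

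**Figure D4:**
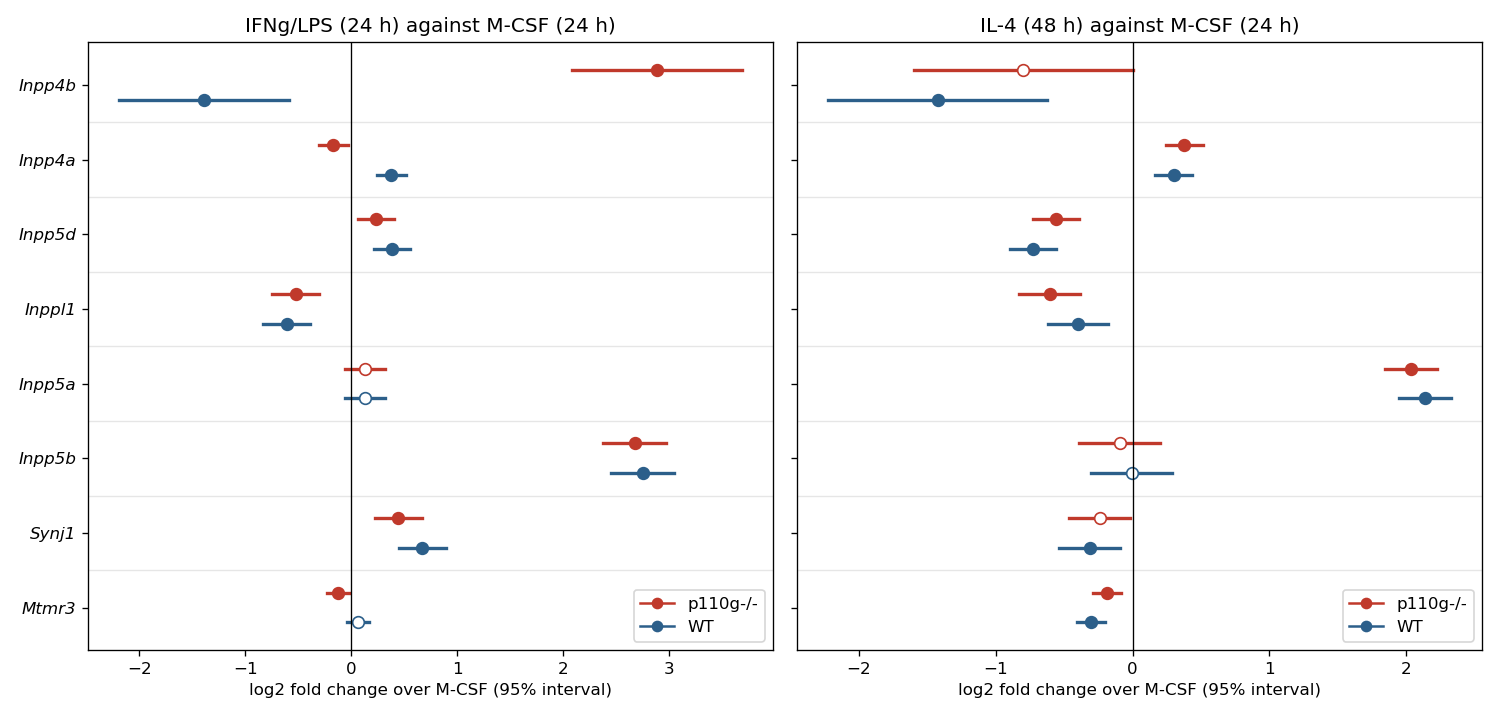
Log2 fold change over M-CSF (horizontal axes, point and 95% interval from limma) with IFNg/LPS on the left and IL-4 on the right, for the 8 genes (vertical axis) in p110g-/- and WT cells. Filled points passed the test. Inpp5b stands at 2.68 and 2.75 with IFNg/LPS and Inpp5a at 2.03 and 2.14 with IL-4, while the Inpp4b points lie on either side of 0 with IFNg/LPS.

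Whether the genotype difference itself depended on the stimulus was tested as an interaction against M-CSF. In IFNg/LPS it passed for 2 members, Inpp4b higher and Inpp4a lower, beside 2.44% of tested genes (1.02% higher and 1.42% lower). For Inpp4b the interaction was 4.28 on the log2 scale (SE 0.53, adjusted p = 0.00070), in place 16 of 15627 genes by p-value. For Inpp4a it was -0.55 (SE 0.090, adjusted p = 0.0049). Both passed without the p110g-/- IFNg/LPS library numbered 1 (4.23 and -0.59, adjusted p = 0.0016 and 0.0039) and without the WT M-CSF library numbered 1 (3.79 and -0.53, adjusted p = 0.00062 and 0.012). The third smallest p was that of Mtmr3 (-0.19, adjusted p = 0.15 by limma and 0.022 by DESeq2). For the 5 others the interval of the interaction included 0.

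In IL-4 the interaction passed for no member and for 0% of tested genes with limma. At an unadjusted p under 0.05 there were 1156 genes and 0 members, edgeR called 0 genes, and DESeq2 called 77 genes, none of them members. The 2 interactions share the M-CSF libraries of both genotypes.

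Over the 18 libraries, members followed each other to different degrees, as a description of libraries that share 3 stimuli and 2 genotypes. On log2 values Synj1 was most like Inpp5b (Pearson r = 0.911) and Inpp5d (0.886), and Inpp5a ran opposite to Inpp5d (-0.862) and Mtmr3 (-0.837). Inpp4a and Inpp4b had r = -0.806. Among 12597 genes with a mean of at least 50, those most like each member were Traf2 and Stx2 for Inpp5b (0.998 each), Plekha3 (0.991) and Msx3 (0.989) for Inpp5a, Filip1l (0.987) and Lyn (0.985) for Synj1, and Por (0.984) and C3ar1 (0.975) for Inpp5d. For the others they were Mef2a (0.938) and Tox2 (0.935) for Inppl1, Slc7a7 (0.921) and Efcab14 (0.909) for Mtmr3, Lypla1 (0.905) and Olfr613 (0.898) for Inpp4a, and Dand5 (0.889) and Apbb3 (0.888) for Inpp4b.

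Genes around the 8 enzymes in the pathway were read from 7 lists of 92 genes, all of them tested. Lists of this size are described only. The counts below stand beside 2.34% of all tested genes called in M-CSF, 3.33% in IL-4, and 6.94% higher and 7.79% lower in p110g-/- IFNg/LPS. Without the p110g-/- IFNg/LPS library numbered 1, 22 of the 24 list genes called there still passed, and Cd300a (-0.25, adjusted p = 0.096) and Pi4ka (0.32, adjusted p = 0.053) did not. Among 18 other phosphoinositide phosphatases, 1 was higher and 2 were lower in p110g-/- cells given IFNg/LPS, with a median log2 fold change of -0.0018. Synj2, the relative of Synj1 with the same 2 phosphatase domains, was lower under every stimulus. It averaged 350 ± 91.9 in p110g-/- and 963 ± 66.0 in WT cells given IFNg/LPS (log2 fold change -1.49, adjusted p = 3.2e-05), 1016 ± 175 and 1924 ± 237 in p110g-/- and WT cells given IL-4 (-0.93, adjusted p = 0.0042), and 718 ± 94.2 and 1654 ± 94.8 in p110g-/- and WT cells in M-CSF (-1.21, adjusted p = 0.00038; SD, n = 3 each). It was the 1 of the 18 that passed in M-CSF and in IL-4. In IFNg/LPS the myotubularin Mtmr6 was lower (-0.28, adjusted p = 0.016) and Mtmr14 higher (0.29, adjusted p = 0.024).

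Of 6 catalytically inactive myotubularin relatives, Sbf2 was higher (0.28, adjusted p = 0.013) and Mtmr10 lower (-0.59, adjusted p = 0.00076) in p110g-/- IFNg/LPS. Of 6 soluble inositol phosphate phosphatases, Impa2, an inositol monophosphatase, was higher there (1.21, adjusted p = 0.0085, and 0.88, adjusted p = 0.029, without the p110g-/- library numbered 1) and Minpp1 lower (-0.21, adjusted p = 0.010).

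Of all tested genes in p110g-/- IFNg/LPS, 6.94% were higher and 7.79% lower. On the kinase side, 3 of 12 genes listed with the phosphoinositide 4- and 5-kinases were higher there and none lower. They were Pi4k2b (0.35, adjusted p = 0.020), Pi4ka (0.30, adjusted p = 0.040) and Pip4k2b (0.30, adjusted p = 0.026). None of 14 genes listed with PI3K passed in IFNg/LPS, Pik3cg included (-0.34, adjusted p = 0.37). In M-CSF, Pik3cg (-1.41, adjusted p = 0.0027) and Pik3r1 (-0.28, adjusted p = 0.048) were lower and Pik3c2b higher (1.09, adjusted p = 0.044), and in IL-4 Pik3cg (-1.63, adjusted p = 0.00063) and Pik3cb (-0.55, adjusted p = 0.0048) were lower.

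The remaining lists hold genes taken as possible partners of SHIP1 and of its lipids. Whether each product binds SHIP1 or these lipids was not tested. Of 12 adaptors and receptors listed as possible SHIP1 partners, 5 were lower and none higher in p110g-/- IFNg/LPS, with a median log2 fold change of -0.39. They were the inhibitory receptors Lilrb3 (-0.72, adjusted p = 9.6e-05), Cd300lf (-0.63, adjusted p = 0.0051) and Cd300a (-0.32, adjusted p = 0.029) and the adaptors Grb2 (-0.34, adjusted p = 0.0031) and Dok2 (-0.87, adjusted p = 0.044). Lilrb3 averaged 36432 ± 2981 in p110g-/- and 59730 ± 992 in WT (SD, n = 3 each). In this list 1 gene was higher (Shc1) and 1 lower (Dok2) in M-CSF, where 2.34% of tested genes passed. In IL-4, where 3.33% passed, 1 was lower (Pilra).

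Of 24 genes listed as possible binders of PtdIns(3,4,5)P3 or PtdIns(3,4)P2, 2 were higher and 7 lower in p110g-/- IFNg/LPS, with a median of -0.086. Vav3, a Rac exchange factor, averaged 879 ± 73.3 in p110g-/- and 1627 ± 171 in WT (log2 fold change -0.89, adjusted p = 2.6e-06). The other 6 lower genes were Cyth4 (-0.60), Adap2 (-0.45), Gab2 (-0.42), Cyth3 (-0.39), Vav1 (-0.38) and Sgk3 (-0.38), and the 2 higher were Plcg1 (0.44) and the kinase Akt1 (0.25). In M-CSF 1 of the 24 was higher and none lower, and in IL-4 none of the 24 passed. The interaction in IFNg/LPS passed for 2.44% of tested genes (1.02% higher and 1.42% lower). Among the list genes it passed for Vav3 (-0.81, adjusted p = 0.0013), Pik3c2b (-1.72, adjusted p = 0.027) and Minpp1 (-0.34, adjusted p = 0.020). Of the possible SHIP1 partners, it passed for Lilrb3 (-0.82, adjusted p = 0.0032), Grb2 (-0.40, adjusted p = 0.038) and Cd300lf (-0.74, adjusted p = 0.049).

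**Figure D5:**
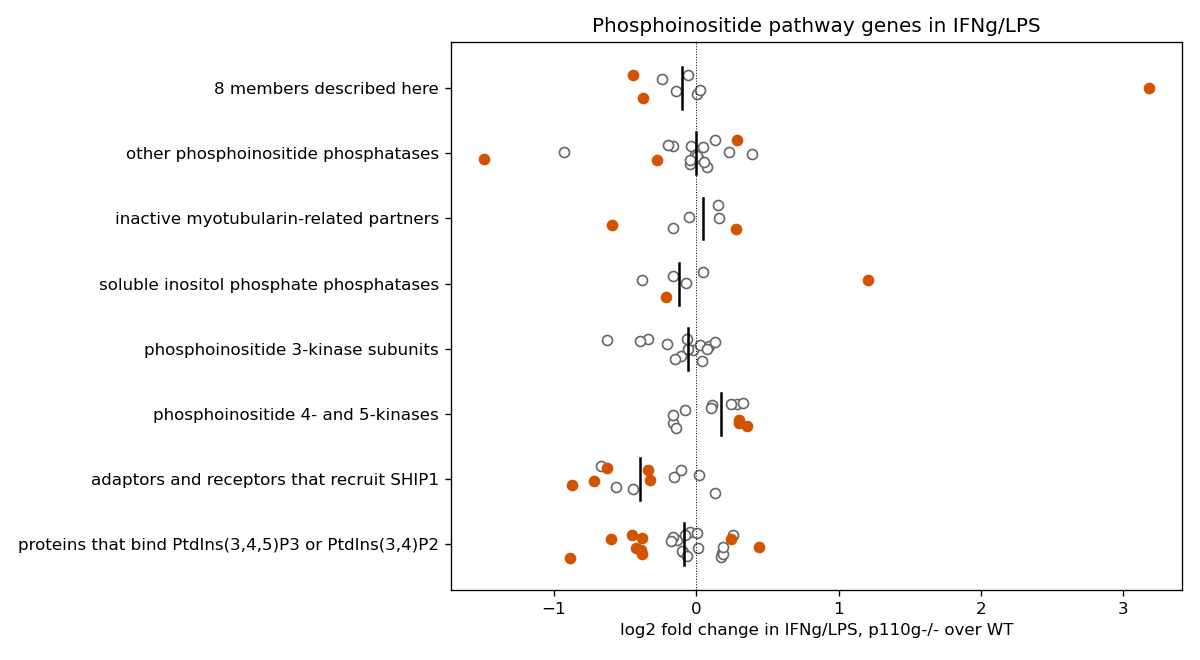
Log2 fold change of p110g-/- over WT in IFNg/LPS (horizontal axis) for the 8 members and for 7 lists of pathway genes (vertical axis), 1 point a gene, filled where it passed the test, with a black bar at the median of each list. Inpp4b stands alone at 3.18, and the list of possible SHIP1 partners has the lowest median, -0.39.

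In the responses to the stimuli, the list counts stand beside 73.0% of tested genes called with IFNg/LPS in p110g-/- and 73.8% in WT. Of the 18 other phosphatases, 9 were higher and 7 lower with IFNg/LPS in p110g-/- cells and 9 and 5 in WT, among them Mtmr14 (1.09 in p110g-/- and 0.83 in WT) and Mtmr7 (2.25 in p110g-/- and 1.89 in WT). With IL-4, Fig4, a 5-phosphatase of PtdIns(3,5)P2, rose in p110g-/- (0.58, adjusted p = 3.1e-05) and in WT (0.62, adjusted p = 2.1e-05). Of the 12 possible SHIP1 partners, 5 were higher and 3 lower with IFNg/LPS in p110g-/- cells and 7 and 1 in WT. Cd300lf was at 2.25 and 2.99 and Cd300a at -2.90 and -2.50 in p110g-/- and WT. Of the soluble inositol phosphate phosphatases, Inpp1 rose with IFNg/LPS (1.72 in p110g-/- and 2.04 in WT, adjusted p = 1.8e-07 and 2.5e-08) and fell with IL-4 (-0.94 in p110g-/- and -0.68 in WT, adjusted p = 0.00037 and 0.0044).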

How the data were processed

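RNA from 18 macrophage libraries was sequenced on an Illumina HiSeq2000. Per the submitters' processing notes the authors used CASAVA 1.8.2, Bowtie2 and DESeq with the mouse build mm9, and deposited 1 signal per gene and library, a count divided by a factor of the library. The annotation and the use of strand are not given in the sources used here. Low values were whole multiples of 1 step per library (100% of them, within 0.1 step), so reads were recovered, with 40.1 to 69.6 M a library. No column of per-sample values was left unmapped (0). Groups came from the labels.

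Genes with a signal of at least 10 in at least 3 libraries (15627 of 16474) were tested with limma 3.58.1 in R 4.3.3 on log2(signal + 1), with a mean for each of the 6 groups, 12 residual degrees of freedom, trended and robust moderation and Benjamini-Hochberg adjustment over all tested genes at 0.05. Adjusted p-values are limma's unless another tool is named, and fold changes are on this log2 scale, which understates those of low genes. The fit was also run on simulated libraries that varied independently. Those do not cover the shared deviation of libraries of the same number described below. The alternatives were edgeR 4.0.16 and DESeq2 1.42.0 on recovered reads, other scalings, pseudocounts, filters and moderation, fits of the compared libraries alone, a replicate block, each library left out, and libraries 2 and 3 alone. Leaving a doubted library out of the pathway lists was added after seeing the data. Levels between genes were divided by the exon length of GENCODE M21. The depth gave a floor, 3 reads, of 2.15 to 4.74 in signal.

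The 8 members, the targeted gene Pik3cg, the 2 genes most like each member, and from each pathway list every gene past a genotype test and at most 4 past a stimulus test with the smallest p were to be named. Some genes that the rule names are not reported here. Members and lists were chosen with earlier results of these data known. Libraries of the same number deviated together, with every correlation over 0.1, in p110g-/- against WT in IFNg/LPS (0.256 to 0.546) and in 3 of 4 stimulus responses, but not in p110g-/- against WT in M-CSF (lowest 0.055) or IL-4 (lowest 0.053).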

Additional observations from a re-analysis of the deposited data

Results flagged for a closer look

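The genotype difference depended on the stimulus for 2 of the 8 genes. For Inpp4b, p110g-/- was 3.18 higher than WT on the log2 scale in IFNg/LPS and 1.10 lower in M-CSF, a difference of 4.28 (SE 0.53, limma adjusted p = 0.00070), with adjusted p between 2.3e-11 and 0.0067 over 24 alternatives. All 3 p110g-/- libraries were above all 3 WT libraries in IFNg/LPS, and all 3 were below them in M-CSF.

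For Inpp4a, p110g-/- was lower than WT by 0.44 in IFNg/LPS and higher by 0.11 in M-CSF. The difference of these was -0.55 (SE 0.090, limma adjusted p = 0.0049), with adjusted p between 2.4e-06 and 0.028 over 24 alternatives. In M-CSF the groups overlapped and the value did not pass (limma adjusted p = 0.55).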

How the results depend on the processing

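Of the members' values under alternatives, 1550 kept direction and side of the threshold, 34 that passed in neither fit had the other sign (at most 0.13 in size), 22 newly passed, 17 no longer passed, and 0 that passed turned round. With only the compared libraries, 708 genes were called for p110g-/- against WT in IFNg/LPS (2303 in the main analysis) and 211 for the IFNg/LPS interaction (381). For IFNg/LPS in p110g-/-, 4 members (7) and 10878 genes (11408) were called. These fits had fewer residual degrees of freedom. With libraries 2 and 3 alone, genotype calls were 4166 in IFNg/LPS, 688 in M-CSF (365), 2285 in IL-4 (520) and 3537 on average (1846), interactions 1708 and 385 (0 in IL-4), and members 1 in IL-4 (0) and 3 on average (1). DESeq2 gave 673 genes in M-CSF, 921 in IL-4, 2361 on average, and 892 and 77 for the interactions in IFNg/LPS and IL-4. It gave 2 members in IL-4 and 2 on average. Upper quartile scaling gave 1 member and 529 genes in IL-4. For the IL-4 interaction, a pseudocount of 10 gave 10 genes and plain moderation 2. The cause was not tested.

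The replicate number as a block gave 555 genes in M-CSF, 763 in IL-4, 2459 on average, and 716 and 8 for the interactions in IFNg/LPS and IL-4. It gave 1 member in IL-4 and 2 on average. Where the numbers paired the libraries, the block changed 1 member call, that of Synj1 with IL-4 in p110g-/-.

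Leaving out 1 library gave 239 to 336 genes in M-CSF, 1466 to 2728 in IFNg/LPS, 239 to 727 in IL-4, 1385 to 2449 on average, and 183 to 633 and 0 to 89 for the interactions in IFNg/LPS and IL-4. Members numbered 0 to 1 in IL-4, 1 to 3 on average and 4 to 7 for IFNg/LPS in p110g-/-, where 10821 to 11097 genes were called. DESeq2 gave no adjusted p for Inpp4b in the IL-4 interaction. Inpp4b, with 14 to 215 reads a library, was the member most limited by depth.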

Other observations

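Genes beside Inpp4b on the chromosome were looked up after its values were seen. Usp38, before it, differed between p110g-/- and WT in IFNg/LPS by -0.22 on the log2 scale (limma adjusted p = 0.10), and Il15, after it, by -0.13 (adjusted p = 0.67). Il15 rose with IFNg/LPS in both genotypes, by 3.97 in p110g-/- (adjusted p = 1.5e-11) and by 3.49 in WT (adjusted p = 6.1e-11). Inpp4b rose in p110g-/- and fell in WT. In M-CSF, p110g-/- differed from WT by -0.60 for Il15 (adjusted p = 0.088) and by -0.042 for Usp38 (adjusted p = 0.93). With IL-4 in WT, the log2 fold change was -0.89 for Il15 (adjusted p = 0.00067) and 0.069 for Usp38 (adjusted p = 0.56). The part of chromosome position in these values was not tested. Pik3cg lies on chromosome 12, and the members with a promoter window lie on chromosomes 1, 4, 7, 8 and 16.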
